A study of Mus musculus with 12 samples.

Results

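Arrdc4, Txnip, Arrdc2 and Arrdc3, which encode alpha-arrestins, were examined together with Mlxipl, Mlx and Pklr, which belong to the glucose-sensing pathway known for driving Txnip and Arrdc4. These 7 genes, of 10607 in the table of normalised values, were followed in the livers of Mettl5 knockout mice. The set was put together because the footprints of Arrdc4 were higher in the knockout, so the footprint and translation efficiency values of Arrdc4 are given as a description, with no test. The other 6 genes were taken for their known roles, with earlier results of these data known.

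The livers came from 3 wild-type (WT) mice and 3 whole-body Mettl5 knockout (KO) mice, paired as littermates in 3 litters. The Mettl5 allele, with a floxed exon, was made in ES cells from an F1 hybrid of C57bl/6 and 129S6 and was backcrossed to B6, and the exon was then removed throughout the body with a Cre strain, B6.C-Tg(CMV-cre)1Cgn/J, whose Cre is driven by the CMV promoter. No age, sex or feeding state of single mice was used here. Each liver, lysed with cycloheximide in both genotypes to hold ribosomes in place, gave an input library (RNA-seq of the lysate) and a library of ribosome-protected fragments (RPFs, or footprints), so there were 12 libraries in 4 groups of 3. METTL5 methylates an adenosine of 18S rRNA, and the comparison asks whether its loss changes which transcripts ribosomes occupy.

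ChREBP, the product of Mlxipl, is a transcription factor of the liver that is activated by sugar metabolites. It pairs with MLX, and the pair binds carbohydrate response elements (ChoREs), which are a pair of E-box-like elements separated by a short spacer, near genes of glycolysis and fatty acid synthesis. Pklr, which encodes liver pyruvate kinase, is the textbook target. Txnip and Arrdc4 are targets of the same family of factors, and their products are alpha-arrestins that lower glucose uptake. TXNIP also binds thioredoxin. ARRDC2 and ARRDC3 share with TXNIP and ARRDC4 the arrestin fold and the motifs that recruit NEDD4-type ligases.

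The promoters were searched because this pathway is defined by its response element. RefSeq sequences of GRCm38.p6 from 250 bases before to 50 after each annotated start were found for 7 of the 7 genes, in 11 windows. Both strands were searched for CACGTG and for a ChoRE written as a pair of elements, each CACGNG or CNCGTG, with 5 bases between them. The matches are printed 5′ to 3′ on the strand of the gene, with the paired elements or the E-box in capitals. The Txnip stretch lies at chr3:96557860-96557900 (plus strand) and its match starts 85 bases before the start, and the Pklr stretch lies at chr3:89136441-89136481 (plus strand) and starts 170 bases before the later of its annotated starts.

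Txnip ChoRE: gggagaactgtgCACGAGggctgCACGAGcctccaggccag
Pklr ChoRE: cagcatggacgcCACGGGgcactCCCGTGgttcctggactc
Arrdc4 E-box: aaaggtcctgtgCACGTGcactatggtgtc
Mlxipl E-box: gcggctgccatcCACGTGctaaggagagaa
Mlx E-box: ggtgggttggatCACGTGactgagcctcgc

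The Arrdc4 stretch is chr7:68749414-68749443 (minus strand, 193 bases before the start), the Mlxipl stretch chr5:135089780-135089809 (plus strand, 98 before) and the Mlx stretch chr11:101087238-101087267 (plus strand, 40 before). No window of Arrdc2 or Arrdc3 held either motif. The ChoRE letters occur in 27 of 32851 promoter windows (0.0822%), whereas CACGTG occurs in 2349 (7.15%), so the single E-box is the common match and the spaced pair the rare one. A match is a description of these letters and not evidence that a factor binds there. The lack of a match is not evidence that an element is absent, since only this spelling and these windows were searched.

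Input libraries held 8326325 to 11825643 counted read pairs, of which 45.8% to 63.8% fell on an 18S rRNA gene, and RPF libraries held 4623826 to 9184242 reads over the genes of the table. Mettl5 footprints, which check the labels, were 53.1 ± 5.30 normalised reads in WT and 7.81 ± 2.06 in KO (SD, n = 3). Their log2 fold change, KO over WT throughout, was −2.64 (SE 0.36), with an adjusted p of 0.00504 in limma. All 6 hepatocyte markers were present, with a summed level of 22337 to 29726 CPM (counts over library sizes adjusted by TMM) in WT input and 22777 to 24673 in KO input.

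Arrdc4 (ENSMUSG00000042659.15, chr7:68736995-68749241, minus strand, mm10 as for all positions here) had higher values in every KO mouse than in any WT mouse, in both kinds of library. Its footprints differed by 3.06-fold and its transcript by 1.50-fold, and footprints per transcript by 2.06-fold, each as a fitted fold change. In RPF libraries the normalised reads, which are reads divided by a single factor per library, were 10.5, 6.83 and 9.80 in WT mice 1, 2 and 3 and 28.5, 30.7 and 28.7 in KO mice 1, 2 and 3. The lowest KO mouse therefore stood above the highest WT mouse by more than either group varied, with 9.03 ± 1.93 in WT and 29.3 ± 1.25 in KO (SD, n = 3). Within litters 1, 2 and 3 the KO to WT ratio of footprints was 2.73, 4.50 and 2.93.

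Arrdc4 is a thinly covered gene in the liver, and these levels rest on few reads. The WT libraries had 12, 8 and 19 footprint reads and the KO libraries 41, 50 and 30. Exact 95% Poisson intervals, which cover counting error only, reached no higher than 18.3 normalised reads in WT libraries and no lower than 19.3 in KO libraries. The footprint log2 fold change was 1.61 (SE 0.25), which ranked 8 among 8994 genes by size of increase. Arrdc4 was chosen for this rise, so neither the gap between the intervals nor the rank is a test of it.

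Input values of Arrdc4 were also higher in KO, without passing the test. In input the normalised counts were 40.4, 47.0 and 49.8 in WT and 60.5, 66.5 and 78.4 in KO, from 22, 30 and 38 counts against 92, 50 and 49. The groups did not overlap, and the littermate ratios of 1.50, 1.41 and 1.57 were close to each other. The input log2 fold change was 0.58 (SE 0.23, 95% interval 0.086 to 1.08), and it did not pass adjustment over 10057 genes (edgeR quasi-likelihood adjusted p 0.999). Input came from the same livers as the footprints that chose the gene, so this test is not independent of that choice. Because the whole liver was sampled, a higher level in bulk RNA and a larger number of cells that express the gene cannot be told apart.

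Translation efficiency (TE) is given as log2 of RPF over input. Arrdc4 had a TE of −1.85, −2.62 and −2.23 in WT and −1.06, −1.09 and −1.42 in KO. Every KO value exceeded every WT value, with means of −2.23 ± 0.38 and −1.19 ± 0.20 (SD, n = 3) and a difference of 1.05 (SE 0.36). All 3 KO values lay above all 3 WT values in input for 3.65% of the 8994 genes, in RPF for 6.97%, in TE for 6.08%, and in input and RPF together for 0.867%, and Arrdc4 is in each of these groups. Since the set was chosen on this contrast, nothing is read from that position. The opposite arrangement, all KO values below all WT values, held for 0 of the 7 genes, and for 5.6% of genes in input, 12.9% in RPF and 7.34% in TE.

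**Figure D1:**
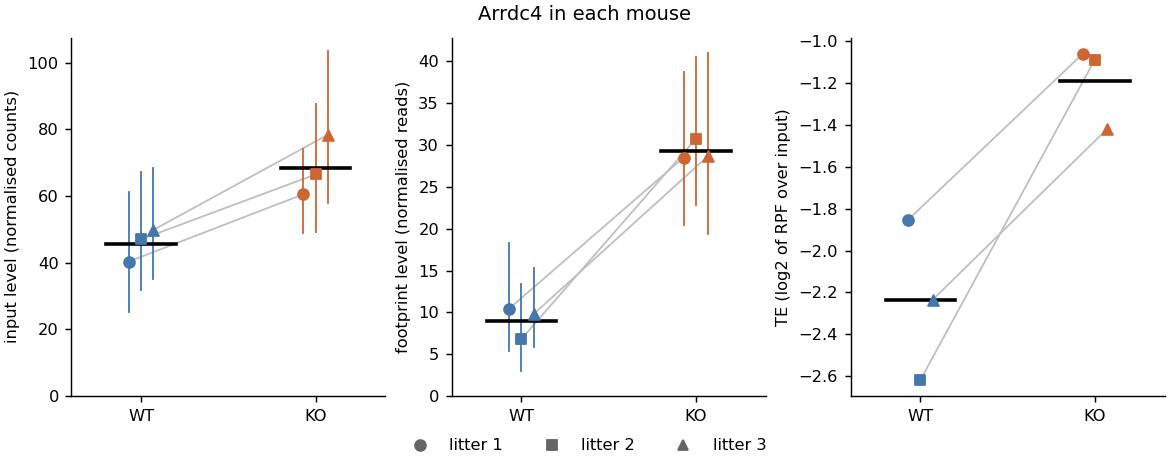
Arrdc4 in each mouse as input level (normalised counts), footprint level (normalised reads) and TE (log2). Points are mice, marker shapes and grey lines join littermates, black bars are group means and coloured bars are exact 95% Poisson counting intervals. Footprints lie at 6.83 to 10.5 in WT and 28.5 to 30.7 in KO, and the groups are apart in all 3 panels.

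Other measures moved with genotype beside Arrdc4. The summed input level of 6 stellate cell and fibroblast markers was 68.3 to 79.0 CPM in WT and 87.8 to 95.1 CPM in KO, and the summed footprints of the 5 of them in the table were 1815 to 2012 in WT and 2669 to 2835 in KO normalised reads. None of the 6 was at 0, and 0 of 5 tested passed in RPF (limma), although Dcn (0.55, SE 0.15), Reln (0.45, SE 0.14), Col1a1 (0.97, SE 0.27) and Col3a1 (0.61, SE 0.17) each had an unadjusted p under 0.05 there, and Lrat had −0.17 (SE 0.44). Markers of hepatocytes, macrophages, endothelial cells, cholangiocytes, lymphocytes and erythroid cells had overlapping summed levels in the 2 genotypes. Single markers among these also had an unadjusted p under 0.05 in RPF (limma), as 13.4% of all genes did. They were Apob (−0.39, SE 0.12) and Serpina1c (−0.40, SE 0.18) of hepatocytes and Lyve1 (1.39, SE 0.51) of endothelial cells. The part of the stellate cell and fibroblast markers in the Arrdc4 values was not tested.

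The footprint libraries also differed in how their reads followed base composition. For every 10 percentage points of coding GC content, the footprint level on the log2 scale changed by −0.17 to −0.080 in WT and −0.0091 to 0.28 in KO. The coding sequence of Arrdc4 has 54.6% GC against a median of 52.5% over tested genes. With the GC trend removed from each library its footprint log2 fold change was 1.56 (SE 0.25).

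The 5 genes whose profile over the 12 libraries was most like that of Arrdc4, by Pearson r of log2 values centred within input and within RPF, were Tnxb (r = 0.950), Ltbp4 (0.940), Bgn (0.909), Col1a2 (0.904) and Adamts13 (0.902). Tenascin X, the TGF-beta binding protein LTBP4, biglycan and a collagen I chain belong to the extracellular matrix, and ADAMTS13 is a protease known to be made by hepatic stellate cells. Tnxb footprints were 56.3 ± 2.53 normalised reads in WT and 113 ± 4.11 in KO, and Adamts13 footprints 24.0 ± 1.14 and 58.1 ± 11.9 (SD, n = 3). The likeness is computed over the same genotype difference that chose Arrdc4, so it describes these libraries and carries no p. Among the other genes of the set the r with Arrdc4 was 0.55 for Arrdc2, 0.042 for Txnip, 0.0012 for Mlxipl, −0.028 for Mlx, −0.084 for Pklr and −0.41 for Arrdc3, and the highest of these, Arrdc2, ranked 648 of 8993.

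In the other 6 genes no footprint change passed the test. Of these, 0 passed an adjusted p of 0.05 in RPF (limma), where 0.489% of 8994 genes passed (0.167% with KO above WT, 0.322% with KO below). Before adjustment, 0 of the 6 were under 0.05, where 13.4% of genes were. In input 0 of the 7 passed (edgeR), where 0% of 10057 genes did. Only Arrdc4, the gene whose footprints chose the set, was under an unadjusted 0.05 there, against 3.46% of genes. In TE 0 of the other 6 passed (limma), where 0% of genes did, and 0 had an unadjusted p under 0.05 against 4.7%. DESeq2 on the input counts and edgeR on whole footprint reads recovered from the table also called 0. The plot of fold changes shows footprint changes of Mlxipl, Mlx, Pklr and Txnip close to 0, and wide errors for Arrdc2 and Arrdc3.

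**Figure D2:**
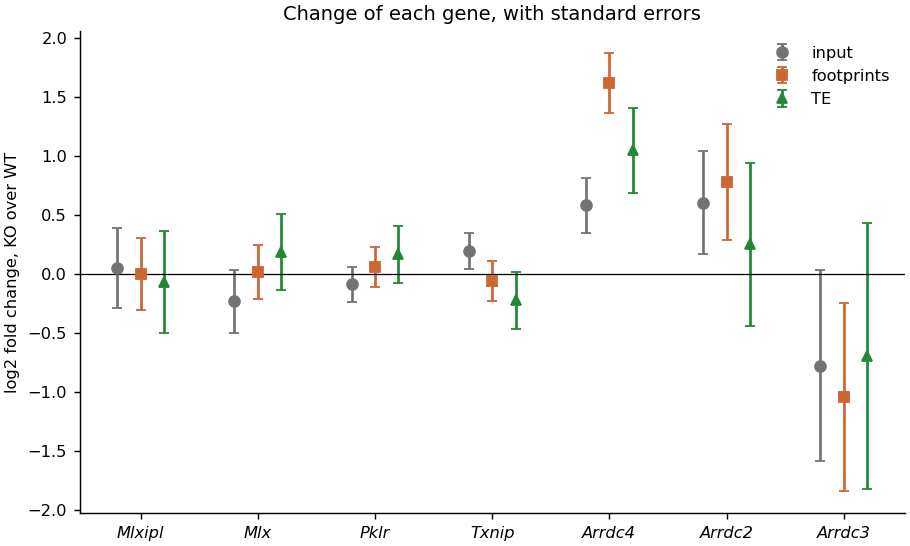
Log2 fold change (KO over WT) of each of the 7 genes in input, footprints and TE, with bars of 1 standard error. Arrdc4 has the highest footprint change at 1.61, and Arrdc3 the lowest at −1.04 with an error of 0.79.

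Mlxipl (ENSMUSG00000005373.13, chr5:135089890-135138382, plus strand), which encodes ChREBP, varied among litters. Its footprints were 444, 311 and 293 normalised reads in WT mice 1, 2 and 3 and 451, 334 and 268 in KO mice 1, 2 and 3. Mouse 1 was the highest of each genotype, the groups overlapped throughout, and each KO mouse lay near its WT littermate, with ratios of 1.02, 1.07 and 0.913. The footprint log2 fold change was −0.0020 (SE 0.30, 95% interval −0.67 to 0.66, limma adjusted p 0.999), and with litter in the model its SE was 0.17. In input Mlxipl had 334, 144 and 219 normalised counts in WT and 280, 170 and 253 in KO, and these values overlapped as well. The input change was 0.054 (SE 0.34, edgeR adjusted p 0.999).

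Mlx (ENSMUSG00000017801.15, chr11:101087277-101092207, plus strand), the partner of ChREBP, was the steadiest of the set in footprints. Its normalised reads were 126, 164 and 147 in WT and 140, 167 and 135 in KO. KO mouse 2 was the highest and WT mouse 1 the lowest of a narrow range, and the log2 fold change was 0.016 (SE 0.23, 95% interval −0.46 to 0.49, limma adjusted p 0.982). Its transcript was more scattered among WT mice, at 47.7, 105 and 68.2 normalised counts, than among KO mice, at 59.9, 62.5 and 64.0. The 3 KO values lay within the span of the WT values, from only 26 to 91 counts per library over both genotypes, and the input change was −0.23 (SE 0.27, edgeR adjusted p 0.999).

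Pklr (ENSMUSG00000041237.12, chr3:89136142-89146784, plus strand), the pyruvate kinase gene, was abundant and did not pass in any comparison. Footprints were 1361, 2211 and 1871 normalised reads in WT and 1900, 2042 and 1633 in KO. The highest and the lowest mouse were both WT, so the KO group lay inside the WT range, and the log2 fold change was 0.057 (SE 0.17, 95% interval −0.30 to 0.41, limma adjusted p 0.912). In input the normalised counts were 913, 1243 and 1045 in WT and 1032, 1049 and 875 in KO, again overlapping, with a change of −0.088 (SE 0.15, edgeR adjusted p 0.999). The gene overlaps Hcn3 on the opposite strand, to which the stranded counts assigned 6 to 28 counts per library against 498 to 1569 for Pklr.

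The TE of Pklr was the exception to this overlap. It was 0.57, 0.83 and 0.84 in WT and 0.88, 0.96 and 0.90 in KO on the log2 scale. All KO values stood above all WT values, as for 6.08% of genes, and WT mouse 1 lay farthest away. The difference was 0.17 (SE 0.24, limma adjusted p 0.998), and with input and RPF of a mouse blocked its SE was 0.14 (limma adjusted p 0.789).

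Txnip (ENSMUSG00000038393.14, chr3:96557957-96561883, plus strand) and Arrdc4 encode close functional relatives, but the footprints of Txnip overlapped between genotypes. Its footprints were 992, 884 and 1087 normalised reads in WT and 1257, 905 and 746 in KO. KO mice 1 and 3 were the highest and the lowest of the 6, with the WT mice between or beside KO mouse 2. The log2 fold change was −0.055 (SE 0.17, 95% interval −0.41 to 0.30, limma adjusted p 0.918). In input Txnip had 304, 260 and 320 normalised counts in WT and 362, 292 and 339 in KO. The groups overlapped, but each KO mouse was above its WT littermate, with ratios of 1.19, 1.12 and 1.06, and the input change was 0.20 (SE 0.15, edgeR adjusted p 0.999). TE was 1.70, 1.76 and 1.76 in WT and 1.79, 1.63 and 1.14 in KO, so KO mouse 3 alone was far from the rest, and the difference was −0.22 (SE 0.24, limma adjusted p 0.998).

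Arrdc2 (ENSMUSG00000002910.11, chr8:70835129-70839720, minus strand) was highest in KO mouse 2 in both kinds of library. Footprints were 8.71, 7.68 and 20.1 normalised reads in WT and 10.4, 36.3 and 20.1 in KO, from 10, 9 and 39 reads against 15, 59 and 21. The groups overlapped, and the littermate ratios were 1.20, 4.72 and 0.998, so the average difference came mostly from litter 2. In input the normalised counts were 22.0, 17.2 and 30.2 in WT and 16.4, 55.8 and 38.4 in KO, with KO mouse 1 the lowest and KO mouse 2 the highest. The log2 fold change was 0.78 in footprints (SE 0.49, limma adjusted p 0.511) and 0.60 in input (SE 0.44, edgeR adjusted p 0.999). Without KO mouse 2 they were 0.36 and 0.15, without KO mouse 1 they were 1.21 and 1.03, and without WT mouse 3 the footprint change was 1.18, and none of these passed. Arrdc2 has the most GC-rich coding sequence of the set, 64.5%, and with the GC trend removed its footprint change was 0.44 (SE 0.47).

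Arrdc3 (ENSMUSG00000074794.10, chr13:80883384-80896042, plus strand), a regulator of receptor trafficking and of metabolic rate in mice, was set apart by a single animal. Its input level was 767, 139 and 155 normalised counts in WT and 188, 209 and 205 in KO. WT mouse 1 stood 3.67 times above the next highest mouse, while the 3 KO mice lay close together and above the other WT mice. In footprints WT mouse 1 was again apart, at 720, 171 and 131 normalised reads in WT and 90.4, 188 and 108 in KO, 3.83 times the next highest mouse. The KO mice did not keep their place there, since KO mice 1 and 3 lay below and KO mouse 2 above the other WT mice.

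The Arrdc3 comparison turned on that mouse. Over all mice the input log2 fold change was −0.78 (SE 0.81, edgeR adjusted p 0.999) and the footprint change −1.04 (SE 0.79, limma adjusted p 0.624). Without WT mouse 1 the input change was 0.47 (SE 0.18) and the footprint change −0.29 (SE 0.25), and neither passed (edgeR adjusted p 1.00 and limma adjusted p 0.717). TE was less affected, since both measures were high in that mouse, with −0.091, 0.30 and −0.24 in WT and −1.05, −0.15 and −0.92 in KO. KO mouse 2 lay between WT mice 1 and 3, but each KO mouse was below its WT littermate, in 3 of 3 litters. The difference was −0.69 (SE 1.12, limma adjusted p 0.998) with the libraries taken as independent. With input and RPF of a mouse blocked its SE was 0.23, and it did not pass (limma adjusted p 0.431).

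Genes that a single mouse carried at 3 times or more the level of every other mouse, in both assays, were rare. Of 8994 genes, WT mouse 1 had 3, which were Angptl8, Apoa4 and Arrdc3, KO mouse 1 had Myc, KO mouse 2 had Cyp17a1, and the other mice had 0. Angptl8 encodes an insulin-responsive inhibitor of lipoprotein lipase and Apoa4 an apolipoprotein. Angptl8 footprints were 220 normalised reads in WT mouse 1 and 22.7 to 36.7 in the other mice, and Apoa4 footprints 3429 and 557 to 794. This search was made after the values of Arrdc3 had been seen.

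**Figure D3:**
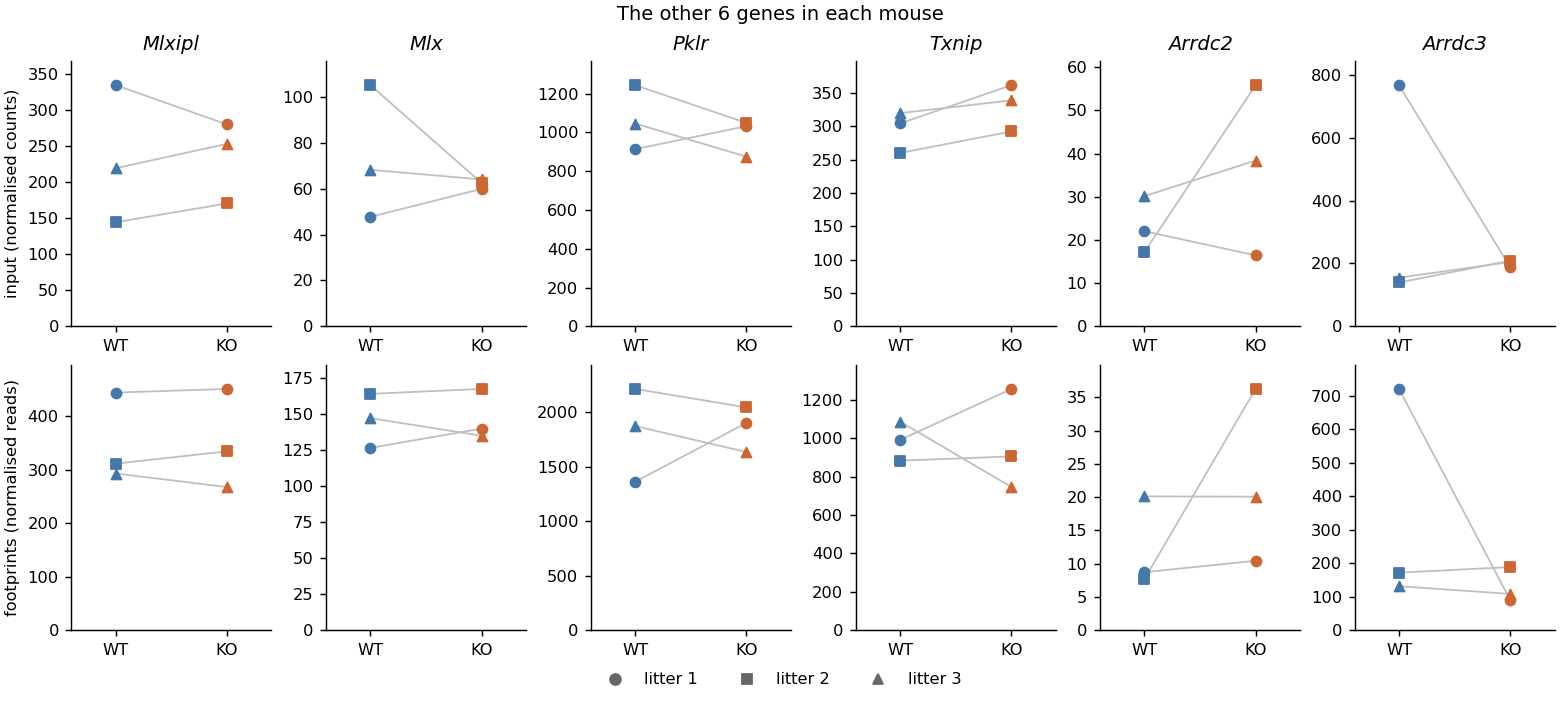
Input (top, normalised counts) and footprints (bottom, normalised reads) of Mlxipl, Mlx, Pklr, Txnip, Arrdc2 and Arrdc3 in each mouse, with grey lines joining littermates and axes starting at 0. WT and KO overlap in each panel, and Arrdc3 in WT mouse 1 stands at 767 in input and 720 in footprints.

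Compared per length, the 7 genes spanned a wide range of levels. Input levels in TPM (counts per exon length, scaled to the library) averaged 35.8 for Pklr, 11.4 for Txnip, 4.76 for Mlxipl, 4.48 for Arrdc3, 3.79 for Mlx, 1.58 for Arrdc4 and 0.959 for Arrdc2 over the 6 mice. The ranges of neighbours over the 6 mice overlapped in 6 of 6 pairs in this order, and in 5 of 6 when Lars2 and the genes of 18S and mitochondrial rRNA were left out of the scaling. Within a mouse, where the scaling cancels, Pklr was above Txnip, Txnip above Mlxipl, and Mlx above Arrdc4 in 6 of 6 mice. Arrdc4 was above Arrdc2 in 5 of 6, whereas Mlxipl with Arrdc3, and Arrdc3 with Mlx, kept their order in 4 of 6.

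Footprints per kilobase of coding sequence gave a steeper ladder. The means over 6 mice were 1065 normalised reads for Pklr, 820 for Txnip, 189 for Arrdc3, 163 for Mlx, 135 for Mlxipl, 15.4 for Arrdc4 and 14.1 for Arrdc2. Txnip and the next gene did not overlap, nor did Mlxipl and Arrdc4, while Pklr and Txnip, the 3 genes from Arrdc3 to Mlxipl, and Arrdc4 and Arrdc2 overlapped with their neighbours. Arrdc3 owes its place to WT mouse 1, and was above Mlx in 1 of 6 mice. Arrdc4 averaged 7.23 in WT and 23.5 in KO, and Arrdc2 9.94 and 18.2. The place of Arrdc4 above Arrdc2 thus came from the KO values, and it held in 3 of 6 mice.

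The relatives Arrdc4 and Txnip lay at opposite ends of the genes when footprint density was set against input density. This measure divides footprints per coding length by input per exon length, and each gene was ranked among the 8994 tested genes of the same mouse. Arrdc4 was at percentile 7.75, 1.79 and 3.74 in WT and 20.4, 17.7 and 11.2 in KO. It was thus among the transcripts with the fewest footprints for their level, and was still no higher than percentile 20.4 in KO. These percentiles rest on few footprint reads. Their difference between genotypes restates the contrast that chose Arrdc4, so nothing is read from it. Arrdc2 was similarly low, with means of 16.4 in WT and 20.6 in KO.

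Txnip was at 88.4 ± 0.876 in WT and 85.2 ± 6.10 in KO (SD, n = 3), high in every mouse. Mlx had 67.4 and 74.1, and Mlxipl (53.3 and 51.4) and Pklr (50.6 and 56.9) lay in the middle. Arrdc3 had 70.9 in WT and 49.6 in KO, with KO mouse 2 at 68.2, inside the WT range of 64.9 to 79.6. The coding sequences of the 4 alpha-arrestins are of like length, 1194 to 1248 bases, while the transcript beyond the coding sequence is longer in Arrdc4 (2482 bases) and Arrdc3 (2616) than in Txnip (1354) and Arrdc2 (812) in the annotated transcripts used.

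**Figure D4:**
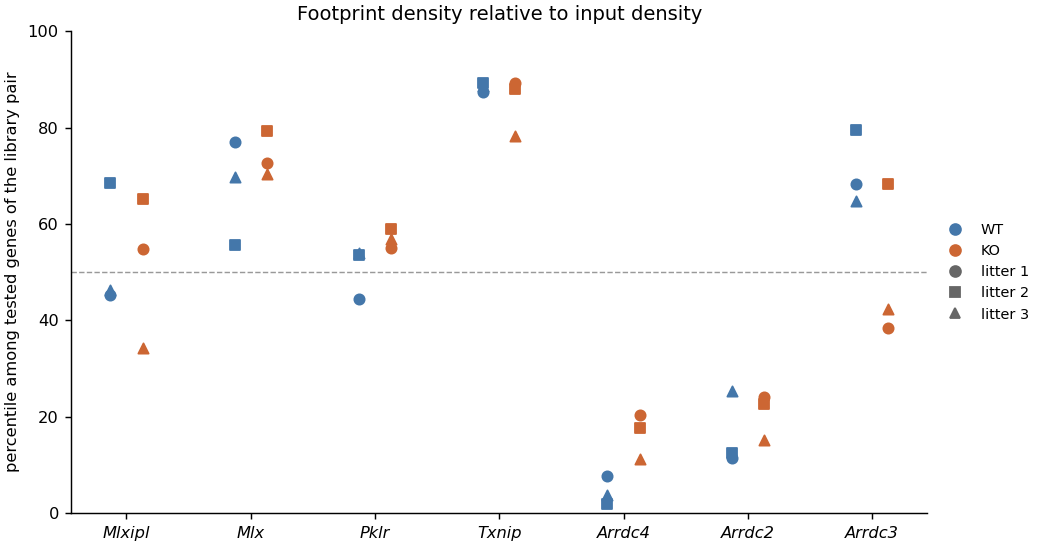
Percentile of footprint density over input density among the 8994 tested genes of the same mouse, for each of the 7 genes in WT and KO, with marker shapes for litters and a dashed line at the middle. Arrdc4 lies at 1.79 to 7.75 in WT and 11.2 to 20.4 in KO, and Txnip stays high in both.

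The wider pathway was followed with 7 lists of genes. Among 21 further ChREBP target genes of glycolysis, fructose metabolism and lipogenesis, 19 were tested in RPF and 0 passed (limma), with 10 above 0 and a median log2 fold change of 0.0091, against −0.033 over all genes. In input 0 passed (edgeR), and the median was −0.080 against −0.00026. The 3 with the smallest footprint p were Slc2a2, the main glucose transporter of hepatocytes (−0.37, SE 0.17, limma adjusted p 0.363), Tkfc, which phosphorylates a fructose product (−0.35, SE 0.17, 0.376), and Me1, a source of NADPH (−0.48, SE 0.26, 0.441). Of the targets with a promoter window, 17 of 21, 0 held the ChoRE letters and 2, Fgf21 and Khk, held CACGTG. Elements spelled otherwise or lying outside the windows were not searched for, so a target without a match may still have a ChoRE.

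Partners in the MLX and MYC network were represented by 7 tested genes of 10, with a footprint median of 0.081 and 0 passing. The gene of smallest p was Mlxip, which encodes MondoA, the paralogue of ChREBP that also pairs with MLX. Its footprints were 8.71, 7.68 and 13.9 normalised reads in WT and 22.2, 18.4 and 20.1 in KO. These levels are low, and the groups did not overlap, as for the 6.97% of genes with all KO above all WT footprints. The log2 fold change of 0.97 (SE 0.33) did not pass (limma adjusted p 0.187), and the input change was 0.43 (SE 0.33). Mga had −0.24 (SE 0.16, limma adjusted p 0.532), and Myc, at 1.15 (SE 1.06, 0.703), was carried by KO mouse 1 with 132 normalised reads against at most 41.0 elsewhere.

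Genes for proteins that alpha-arrestins work with gave 0 calls in RPF (limma). Of 11 genes for NEDD4-family ubiquitin ligases and their adaptors, 10 were tested in RPF and 0 passed, with a median of −0.0077. Nedd4l (−0.46, SE 0.15, limma adjusted p 0.177), Itch (−0.38, SE 0.16, 0.296) and Smurf1 (0.43, SE 0.22, 0.411) had the smallest p. Of 7 other arrestins and arrestin-fold genes 5 were tested, with a median of −0.095 and Vps26a (−0.33, SE 0.24, limma adjusted p 0.582) first. The thioredoxin system, bound by TXNIP, gave 0 of 11 passing and a median of −0.059, and Txnl1, a thioredoxin-like protein of the proteasome, came first at −0.48 (SE 0.14, limma adjusted p 0.121), with 898 ± 110 normalised reads in WT and 643 ± 65.2 in KO (SD, n = 3).

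The list for glycolysis and glucose entry gave 0 of 16 genes passing in RPF (limma) and a median of −0.013. Pfkfb3, which makes the activator of phosphofructokinase, was the gene of smallest p. Its footprints were 101, 375 and 280 normalised reads in WT and 65.3, 116 and 64.0 in KO, so KO mouse 2 lay just above WT mouse 1. The footprint change was −1.47 (SE 0.65, limma adjusted p 0.374), and input gave −1.72 (SE 0.63, edgeR adjusted p 0.999). Aldoa (−0.36, SE 0.19) and Slc2a1 (0.42, SE 0.26) followed.

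A list of genes induced by glucocorticoids and fasting had the highest median. Several alpha-arrestin genes are also known to rise under these conditions, but a part of either condition in the values here was not tested. Of 18 tested in RPF, 13 were above 0 and 5 below, with a median of 0.27 against −0.033 over all genes. In input 13 were above 0 and 5 below, with a median of 0.15 against −0.00026. In either assay 0 passed (limma and edgeR). Irs2, an adaptor of insulin signalling, had footprints of 104, 87.9 and 220 normalised reads in WT and 389, 222 and 447 in KO, and KO mouse 2 stood barely above WT mouse 3. It changed by 1.41 on the log2 scale (SE 0.50, limma adjusted p 0.274). Igfbp1, a liver product that rises when insulin is low, had 744, 640 and 1118 in WT and 3887, 1137 and 2165 in KO, with KO mouse 2 again barely above WT mouse 3, and a change of 1.39 (SE 0.62, limma adjusted p 0.382). Foxo3 came next with 0.38 (SE 0.25, limma adjusted p 0.533).

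Comparing littermates changed the count of listed genes though not of the 6 genes tested with Arrdc4. Litter was added as a block to the fit of all 12 libraries, in which input and RPF of a mouse count as independent. RPF libraries alone were not fitted with the block. With the block, 5 of the 86 listed genes tested passed in RPF (limma), where 3.26% of all genes did. They were Irs2 (1.41, SE 0.23, adjusted p 0.00610), Scd1, the stearoyl-CoA desaturase (0.52, SE 0.11, 0.0137), Pfkfb3 (−1.47, SE 0.31, 0.0285), Pck1 of gluconeogenesis (0.54, SE 0.14, 0.0415) and Txnl1 (−0.48, SE 0.13, 0.0434). With GC and length trends removed in the same blocked fit, Pfkfb3 and Scd1 passed, Irs2, Pck1 and Txnl1 did not, and the peroxiredoxin gene Prdx1 did. Of the 5, only Scd1 is from the ChREBP target list, and 0 of Mlxipl, Mlx, Pklr, Txnip, Arrdc2 and Arrdc3 passed.

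**Figure D5:**
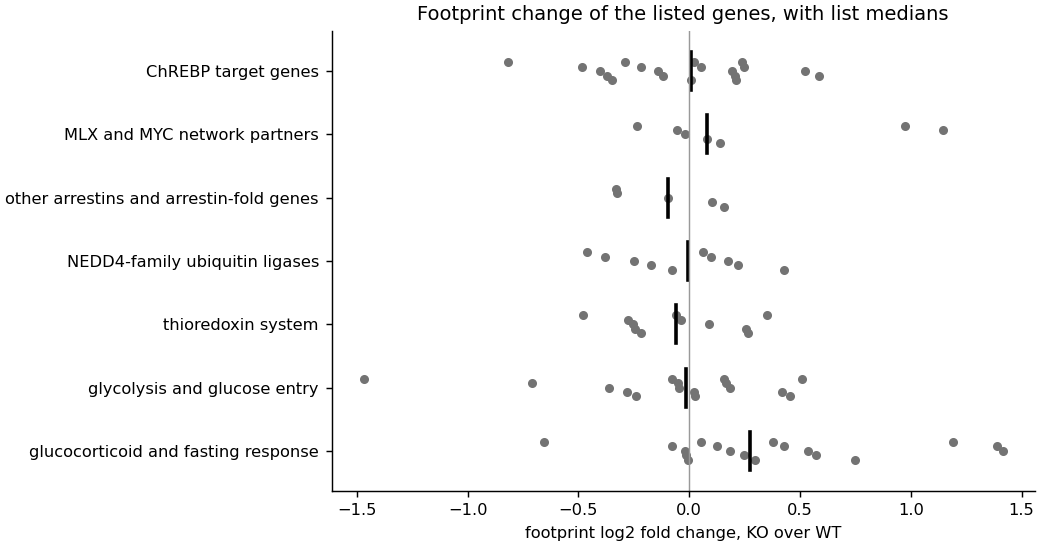
Footprint log2 fold change (KO over WT) of each tested gene in the 7 lists, 1 point per gene, with black bars at list medians. Medians lie between −0.095 and 0.081 except for the glucocorticoid and fasting list at 0.27, and Pfkfb3 at −1.47 and Irs2 at 1.41 are the extremes.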

How the data were processed

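Liver input and RPF libraries of 3 WT and 3 KO mice were analysed, grouped by the sample labels. The deposited input counts are whole read pairs per gene, which the authors aligned to mm10 with STAR 2.7.3a and assigned to exons by strand with featureCounts (1.6.0 in the notes, 2.0.3 in the header). The exon length used for TPM is the other column taken from that deposited file. The signal in the deposited table, named as a length-normalised unit by the authors, is reads over 1 factor per library: 100% of values were whole multiples within 0.01, and the recovered input reads equalled the counts. The authors removed rRNA reads and kept duplicates in RPF. How the factors and gene filter were set is not given in the sources used here, and the table holds genes with at least 1 read in every library. Its columns of fold changes, p-values and adjusted p-values were not used. No column lacked a sample.

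Input was tested with edgeR 4.0.16 (TMM, filterByExpr, quasi-likelihood) and RPF and TE with limma 3.58.1 in R 4.3.3, after adding 1 and taking log2. The limma fit held the 12 libraries as 4 group means with a shared spread, so input and RPF of a mouse counted as independent. The 8994 genes kept for limma averaged 10 or more in both assays. Fold changes on this scale are too small for genes of low level. Tests were two-sided, with Benjamini-Hochberg adjustment over all genes tested. The 7 genes and all lists were chosen with earlier results of these data known. Named genes were the 7, Mettl5, listed genes that passed or had the 3 smallest RPF p-values in a list, and the 5 most like Arrdc4. Single cell type markers, the genes carried by 1 mouse and those called with the block were named after their values were seen.

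Same-numbered mice are littermates per the labels, and deviations from group means correlated across genes between them with r = 0.0816, 0.127 and 0.100 (input) and 0.242, 0.144 and 0.195 (RPF), so the mice are paired. The methods of the study mention no term for litter, and the block is an alternative. Replicates of a group all differed by more than sampling noise (chi-square per degree of freedom 5.75 to 42.9). Alternatives were other normalisations, filters, pseudocounts, DESeq2 1.42.0, edgeR on recovered reads, GC and length trends, the litter and mouse blocks, and leaving out each mouse. Fits were tested on simulated data. Annotation was GENCODE M21 on GRCm38.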

Additional observations from a re-analysis of the deposited data

How the results depend on the processing

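Of 400 alternative values of 28 results, 371 kept their direction and side of the threshold, or for counts stayed within 1.5 times, and 25 changed direction. The other 4 are 3 counts of listed genes called in RPF and the Arrdc4 footprint change with a pseudocount of 5, which kept its direction. In all alternatives 0 of the 6 genes tested beside Arrdc4 passed in RPF or TE and 0 of the 7 in input. The listed genes called in RPF numbered 0 in the main fit and 5 with the replicate block of litter. With GC and length trends removed in the same blocked fit there were 3 (Pfkfb3 and Scd1 shared, Prdx1 gained). Leaving out 1 mouse, with no block, gave 0 to 1 (1, Pfkfb3, without WT mouse 1). The block changed no other call.

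The Arrdc4 footprint change ranged from 1.30 (pseudocount of 5) to 1.71, and from 1.45 to 1.72 when leaving out 1 mouse. Its TE change ranged from 0.77 to 1.13 and from 0.85 to 1.24, and its input change from 0.57 to 0.60 and from 0.49 to 0.67.

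Changes of direction follow, all in values that did not pass. In RPF, Mlxipl was 0.011 with centred columns and 0.038 with edgeR on whole reads, Mlx was −0.035 with GC trends removed and −0.0063 with GC and length trends removed and the block, Pklr was −0.069 and −0.076 under the same settings, and the TE of Arrdc2 was −0.041 under both. Leaving out 1 mouse gave RPF changes of −0.082 to 0.10 for Mlx, −0.20 to 0.18 for Mlxipl, −0.14 to 0.21 for Pklr and −0.26 to 0.12 for Txnip, TE changes of −0.016 to 0.36 for Mlx and −0.26 to 0.18 for Mlxipl, and input changes of −1.16 to 0.47 for Arrdc3, −0.45 to 0.10 for Mlx, −0.20 to 0.40 for Mlxipl and −0.19 to 0.032 for Pklr. The cause was not tested, apart from Arrdc3, where WT mouse 1 alone was high. Arrdc4 and Arrdc2 have no value under the stricter filter, a mean of 50 or more, since they fall under it. Depth limits these 2 genes most, with 8 to 59 footprint reads per library.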
